A study of Mus musculus with 10 samples.

Results

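The 42 genes described here encode the machinery that copies DNA in S phase: the origin recognition complex (ORC), the licensing factors, the MCM helicase and its activators, the replicative polymerases with their clamp and clamp loader, the single-strand binding protein RPA, and the enzymes that join Okazaki fragments. They were listed by name for these known roles, and all 42 were found among the 55359 genes of the expression table. RNA was sequenced from lineage-negative (Lin-) bone marrow cells, the fraction left after a kit removes mature blood cells, which holds stem cells and progenitors. There were 5 libraries from Dhx9f/f mice (WT) and 5 from Dhx9f/f;MX1 mice (cKO). Both groups carry the floxed allele of Dhx9, an RNA and DNA helicase, and the cKO group also carries Cre under the Mx1 promoter, which interferon switches on in blood cells and in other tissues. The methods give poly(I:C), an interferon inducer, to MX1-Cre mice and place the analysis about a week after the first dose. Whether the sequenced WT mice received poly(I:C), and the strain and age of the mice, are not given in the sources used here. The genotype label of the second group reads knock down where the sample titles give the conditional genotype. The comparison asks how the replication genes differ between these groups.

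Before S phase, ORC, CDC6 and CDT1 load the ring-shaped MCM2-7 complex onto origins as an inactive pair of helicases, a step called licensing, and geminin blocks CDT1 so that no origin is licensed again. In S phase CDC45 and the GINS complex join MCM2-7 to form the active helicase, polymerase alpha-primase lays down primers, and polymerases epsilon and delta extend them on the leading and lagging strand while the PCNA clamp holds them on DNA. Many of these genes are transcribed at the G1/S boundary under E2F factors, and dividing progenitors, early erythroid cells among them, express them strongly.

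The check of the targeted gene went against the labels. Dhx9 was 65.43 to 72.42 FPKM (fragments scaled to transcript length and library size) in WT and 130.82 to 156.49 FPKM in the libraries labelled cKO, a ratio of means of 2.01 (n = 5 per group; limma adjusted p = 1.39e-05). The reads over the floxed exons were not analysed here, so every direction below rests on the labels, and cKO means the libraries labelled cKO. The steps between low FPKM values gave an estimated 15044088 to 18712375 fragments per WT library and 13834771 to 17190985 per cKO library. Xist, transcribed from the inactive X of females, separated WT libraries 3 to 5 (at least 99.19 FPKM) from WT libraries 1 and 2 and all cKO libraries (0.09 FPKM at most), so sex was uneven between the groups. Markers of stem and progenitor cells, which the Lin- fraction holds, were present in both groups and mostly lower in cKO. Kit was at 45.9 FPKM in WT and 25.5 in cKO, and Cd34 at 25.7 and 3.10. Of the 2 highest markers of the list, Myb was at 70.6 and 38.7 FPKM. The other, Cd48, was at 77.7 and 82.4 FPKM and did not pass (limma adjusted p = 0.925). Of 12 such markers 10 passed lower. Erythroid genes went the other way, with 17 of 18 passing higher and the hemoglobin gene Hbb-bs at 158 ± 112 and 1028 ± 267 FPKM (SD, n = 5).

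Log2 fold changes are differences of log2(FPKM + 0.1), cKO minus WT, and the added 0.1 shrinks those of genes near 0. They are given with their SE from limma, fitted on the 18742 genes whose mean reached 0.1 FPKM, and a gene is said to rise or fall at an adjusted p (Benjamini-Hochberg over all genes tested) under 0.05. Each group had 5 libraries, and values after ± beside an FPKM are SD. The replication genes were well expressed. Group means ran from 7.89 FPKM for Orc4 in WT to 233 FPKM for Pcna in cKO, and all 42 passed the filter on low values.

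Over the whole set, 14 of 42 genes (33.3%) rose in cKO and 3 (7.14%) fell. With a library left out, the count of falls was 7 without cKO library 1 and 1 without WT library 2 or 3 or cKO library 2 or 4. Among all genes tested 16.7% rose and 28.3% fell. The changes were small. None of the 42 reached a 2-fold change in either direction, whereas 4.60% of all genes tested were higher and 16.8% lower by this rule. At an unadjusted p under 0.05 the counts were 16 higher and 7 lower. The median log2 fold change was 0.17 over the 42 genes, with 32 of 42 above 0, and -0.11 over all genes tested. The members' median was 0.27 with median-ratio scaling and 0.11 without cKO library 1. Quantile normalization moved the median of all genes tested from -0.11 to 0.10 and left the members 0.05 above it instead of 0.27. Under it 12 of 42 members rose and 4 fell, against 25.1% and 21% of all genes tested, so the rises were near the background. The members above the median of all genes then numbered 22, against 33 in the main fit. With a term for Xist in the fit, 8 of the 14 rises and 1 of the 3 falls still passed, and Mcm10, Orc2, Orc4, Cdt1, Rfc3, Rpa2, Pold3 and Pole2 did not. The genes that were lost kept their sign and had a larger SE. Cdt1 was at 0.414 ± 0.116 without the term and 0.418 ± 0.162 with it, and Rfc3 at 0.287 ± 0.090 and 0.225 ± 0.122. Among all genes tested, 10.9% rose and 21.5% fell with the term. The 5 cKO libraries lay above the 5 WT libraries for 5 members (Orc4, Orc5, Orc6, Pole3 and Rfc4), against 10.6% of all genes, and below them for 2 (Pold3 and Rfc2), against 21.6% of all genes. In bulk RNA, fewer cells of a type and less RNA per cell cannot be told apart, so none of these values separates the share of cells in S phase from the amount of message in each.

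**Figure D1:**
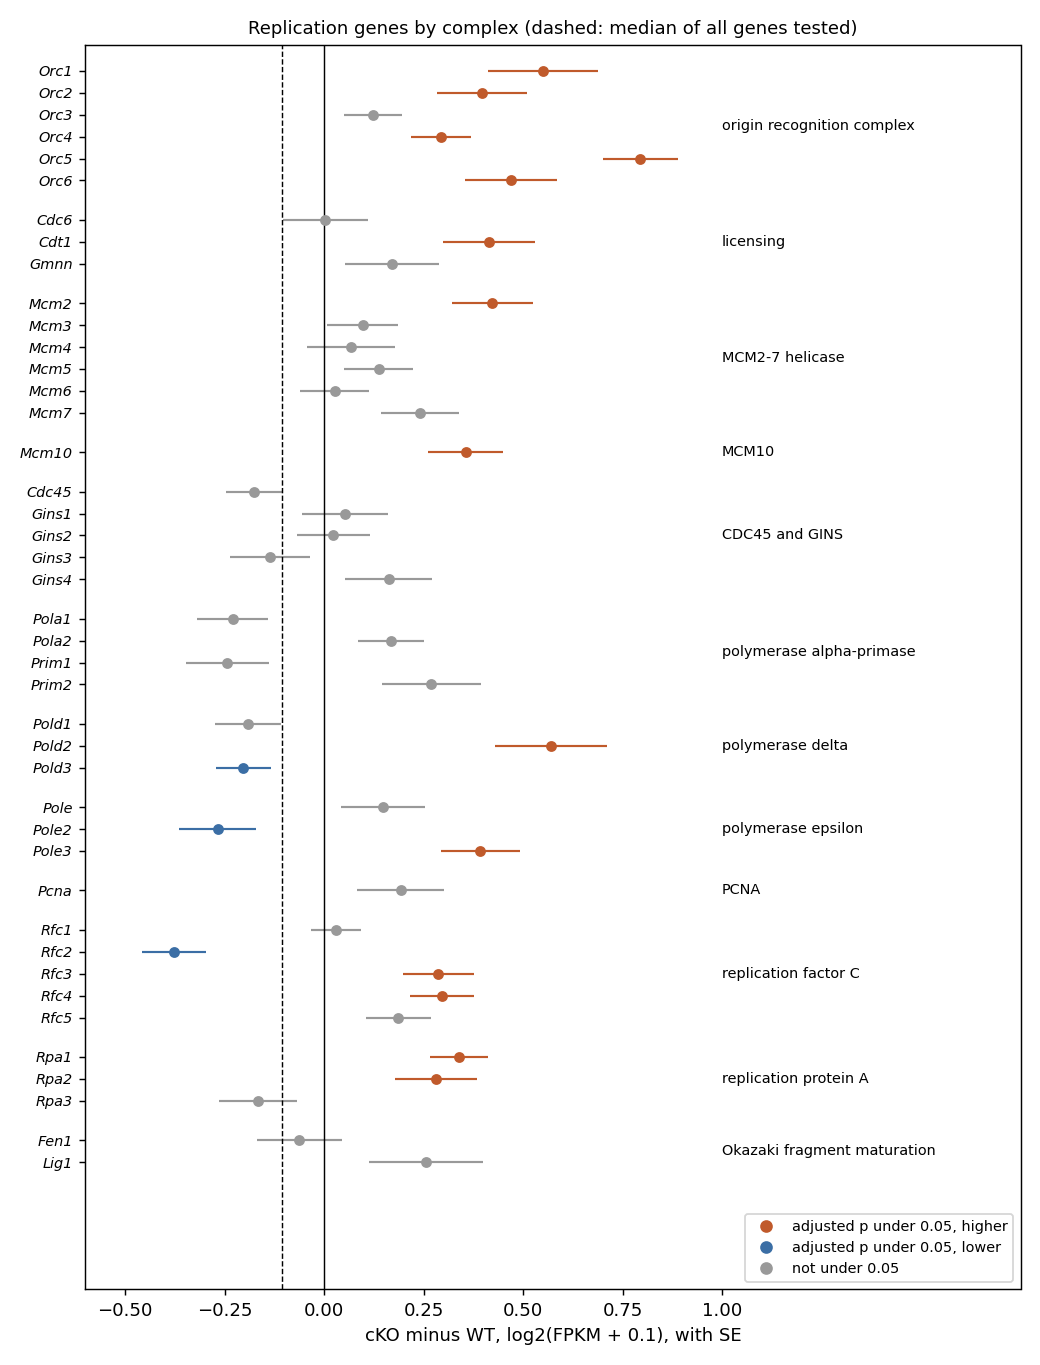
Log2 fold change, cKO minus WT, of each of the 42 replication genes with its SE (n = 5 libraries per group), grouped by complex; colours mark genes that rose or fell at a limma adjusted p under 0.05, and the dashed line is the median of all genes tested (-0.11). ORC subunits sit to the right (median 0.43), while each polymerase and replication factor C hold subunits on both sides of 0.

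The promoters of the replication genes are shown because many are held to be E2F targets and the members moved unevenly. RefSeq promoter windows (GRCm38.p6, from 250 bases before to 50 after a gene's start) were at hand for 34 of the 42 genes. An E2F sequence, spelled TTTCCCGC, TTTCGCGC, TTTGCCGC or TTTGGCGC on either strand, with overlapping matches counted, was in the windows of 15 of 34 members (44.1%), 2.61% of 27025 genes with a window, 4.58% of the 10995 of these that were tested here and 1 of 33 mitotic genes (3.03%). The letters CCAAT were in 61.8% of the members, 42.7% of the genes tested and 75.8% of the mitotic genes. The 250 bases before the start, 5′ to 3′ on the gene's strand, are given for Orc1, which has a match and rose (chr4:108579204-108579453, plus strand), Mcm5, which has a pair of overlapping matches and did not pass (chr8:75109259-75109508, plus strand), and Orc5, which has none and changed most of the 42 genes (chr5:22550339-22550588, minus strand). Capitals mark the E2F letters.
Orc1: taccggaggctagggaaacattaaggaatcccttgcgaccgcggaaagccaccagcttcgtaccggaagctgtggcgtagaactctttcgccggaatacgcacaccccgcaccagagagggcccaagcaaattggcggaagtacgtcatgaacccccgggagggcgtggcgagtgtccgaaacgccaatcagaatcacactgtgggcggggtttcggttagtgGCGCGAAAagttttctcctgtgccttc
Mcm5: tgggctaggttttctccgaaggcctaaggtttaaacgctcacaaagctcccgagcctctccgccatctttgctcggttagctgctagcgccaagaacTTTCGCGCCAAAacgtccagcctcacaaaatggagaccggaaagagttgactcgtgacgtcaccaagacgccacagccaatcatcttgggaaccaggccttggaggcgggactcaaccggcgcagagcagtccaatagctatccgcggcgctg
Orc5: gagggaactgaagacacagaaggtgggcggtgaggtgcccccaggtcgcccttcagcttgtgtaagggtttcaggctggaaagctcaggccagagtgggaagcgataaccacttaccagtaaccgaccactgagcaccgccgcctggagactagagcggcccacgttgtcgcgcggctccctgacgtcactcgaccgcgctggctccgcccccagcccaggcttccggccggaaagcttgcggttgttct

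The match in Orc1 ends 20 bases before the start and the overlapping matches in Mcm5 end 142 bases before it. Mcm6 had the most matches, 3, and a log2 fold change of 0.03. Among the 15 members with the E2F sequence 3 rose (Orc1, Cdt1 and Rfc3) and 2 fell (Pold3 and Pole2), with a median of 0.10 and a range from -0.27 to 0.55. Among the 19 without it 11 rose and none fell, with a median of 0.29 and a range from -0.24 to 0.80. Rfc2, the member that fell most (-0.38), is among the 8 members without a window and so in neither group. The falls of Pold3 and Pole2 were kept in only 13 and 8 of 21 alternatives. Of all genes tested, 16.7% rose and 28.3% fell. Both groups of members held genes on either side of 0 and their ranges overlapped over most of their length. A match of letters is not a bound site, and E2F binding was not measured.

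**Figure D2:**
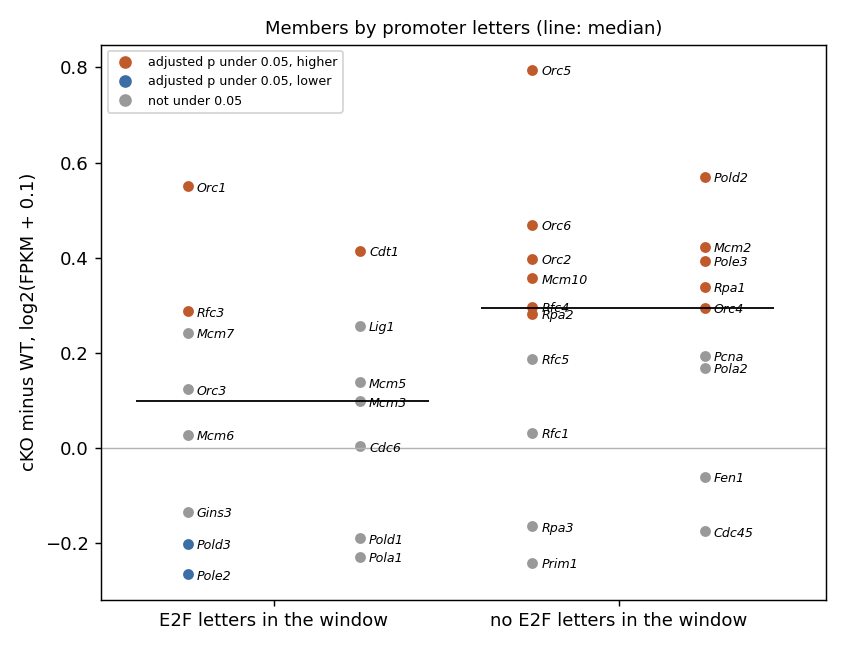
Log2 fold change, cKO minus WT, of the 34 members with a promoter window, by whether the window holds the E2F letters; lines are medians (0.10 with, 0.29 without) and colours mark genes that rose or fell at a limma adjusted p under 0.05. Orc5, Pold2 and Orc6 are among those without the letters. Rfc2, the member that fell most, has no window and is not drawn.

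Of the 6 subunits of ORC, the complex that marks origins, 5 rose (Orc1, Orc2, Orc4, Orc5 and Orc6), with a median log2 fold change of 0.43. Orc5, an ATP-binding subunit of the ring (chr5:22691478-22755427, minus strand, GRCm39) and without the E2F letters, had libraries 1 to 5 at 11.48, 11.97, 14.00, 11.68 and 11.05 FPKM in WT and 17.67, 20.70, 21.11, 24.32 and 21.13 FPKM in cKO. Every cKO library lay above every WT library, and the log2 fold change was 0.80 ± 0.09 (limma adjusted p = 0.000131), a ratio of means of 1.74. Orc1, the subunit with the ATPase activity that licensing needs (chr4:108436540-108473245, plus strand), was at 11.94, 13.76, 18.22, 12.24 and 10.15 FPKM in WT and 21.27, 19.43, 19.75, 18.25 and 17.03 FPKM in cKO. The groups overlapped through WT library 3 alone, which stood above cKO library 5, and the log2 fold change was 0.55 ± 0.14 (limma adjusted p = 0.00741). Orc6, the smallest subunit (chr8:86026219-86034912, plus strand), was at 31.75, 34.07, 39.93, 31.47 and 28.44 FPKM in WT and 58.33, 45.10, 40.71, 45.52 and 40.48 FPKM in cKO. The groups did not overlap, though WT library 3 came within 1 FPKM of cKO library 5 (log2 fold change 0.47 ± 0.12, limma adjusted p = 0.00679). Orc2, the subunit with the highest level, was at 32.98, 42.51, 46.05, 35.54 and 30.91 FPKM in WT and 54.51, 53.29, 46.61, 46.68 and 44.51 FPKM in cKO. Its groups overlapped at WT library 3 and cKO library 5 (0.40 ± 0.11, limma adjusted p = 0.0151).

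The other ORC subunits had smaller log2 fold changes. Orc4, another ATP-binding subunit and the one with the lowest level of the 42 genes, went from 7.89 ± 0.23 to 9.72 ± 0.83 FPKM, with no overlap (0.29 ± 0.08, limma adjusted p = 0.00907). Orc3 did not pass, at 18.2 ± 1.69 and 19.7 ± 0.75 FPKM (0.12 ± 0.07, limma adjusted p = 0.188). Levels per length within ORC spanned 4.77-fold in WT and 5.05-fold in cKO, with Orc4 lowest and Orc2 highest in both. Part of the exonic sequence of some subunits is shared with a neighbouring gene on the other strand in GENCODE vM39 (32.9% for Orc3 with Akirin2, 22.2% for Orc4 with Acvr2a, 20.7% for Orc2 with Nif3l1). Whether counting used strand is not given in the sources used here.

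Among the licensing factors, Cdt1, which brings MCM2-7 to ORC, was at 43.68, 43.71, 54.26, 40.03 and 39.04 FPKM in WT and 70.71, 61.41, 61.39, 52.73 and 48.45 FPKM in cKO. The groups overlapped through WT library 3, and the log2 fold change was 0.41 ± 0.12 (limma adjusted p = 0.0135). Gmnn, which encodes the CDT1 inhibitor geminin and had the highest level of the licensing genes, was at 53.80, 56.72, 71.75, 57.06 and 51.96 FPKM in WT and 85.92, 59.92, 63.03, 61.90 and 58.53 FPKM in cKO. The high value of each group came from WT library 3 and cKO library 1, and the difference did not pass (0.17 ± 0.12, limma adjusted p = 0.269). Cdc6, the loader that acts with CDT1, had nearly equal means of 36.3 ± 4.70 and 36.4 ± 4.55 FPKM (0.00 ± 0.11, limma adjusted p = 0.983).

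In the helicase that ORC loads, 1 of 6 genes passed. Mcm2 to Mcm7 all had positive log2 fold changes, from 0.03 to 0.42 with a median of 0.12. The gene that passed was Mcm2, whose protein carries the histone-binding tail of the helicase, at 50.70, 59.87, 72.96, 54.92 and 49.62 FPKM in WT and 72.67, 81.08, 70.93, 79.06 and 79.41 FPKM in cKO. WT library 3 lay above cKO libraries 1 and 3, and the other WT libraries lay below all cKO libraries (0.42 ± 0.10, limma adjusted p = 0.00575). Mcm6, with the highest mean of the complex over all libraries and in WT (in cKO it was Mcm7), was at 133.72, 143.75, 166.48, 132.47 and 132.63 FPKM in WT and 169.35, 146.11, 137.25, 135.05 and 134.69 FPKM in cKO. The groups overlapped throughout (0.03 ± 0.09, limma adjusted p = 0.823). Mcm7 came nearest to passing among the rest, at 126 ± 17.1 and 148 ± 14.5 FPKM (0.24 ± 0.10, limma adjusted p = 0.0649). Mcm3, Mcm4 and Mcm5 had log2 fold changes of 0.10, 0.07 and 0.14, and Mcm3 and Mcm5 hold the E2F letters, while Mcm4 had no window to read. The subunits, which are present in equal numbers in the ring, were spread over 2.46-fold in level in WT and 1.93-fold in cKO, with Mcm2 lowest in both.

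Factors that turn the loaded helicase on were divided. Mcm10, needed for origin firing, was at 15.28, 17.19, 17.60, 15.37 and 14.24 FPKM in WT and 23.68, 21.20, 21.17, 17.41 and 18.91 FPKM in cKO. WT library 3 overlapped with cKO library 4, and the log2 fold change was 0.36 ± 0.09 (limma adjusted p = 0.0101). None of the 5 genes of CDC45 and GINS passed, with log2 fold changes from -0.18 to 0.16. Gins4, the GINS gene with the highest level, was at 31.99, 34.38, 43.73, 37.56 and 34.84 FPKM in WT and 51.37, 40.92, 36.12, 36.99 and 39.30 FPKM in cKO, with overlap (0.16 ± 0.11, limma adjusted p = 0.259). Cdc45 had means of 25.2 ± 0.64 and 22.4 ± 2.14 FPKM (-0.18 ± 0.07, limma adjusted p = 0.0643). Gins1, Gins2 and Gins3 had log2 fold changes of 0.05, 0.02 and -0.14. In Gins2, 67.3% of exonic bases also lie in Gse1 on the other strand.

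The polymerases did not move as units. In polymerase alpha-primase none of 4 genes passed, and the signs were divided: Pola1, the catalytic subunit, -0.23 ± 0.09 (limma adjusted p = 0.0545), Prim1, the catalytic primase, -0.24 ± 0.10 (0.0814), Pola2, the accessory subunit, 0.17 ± 0.08 (0.124) and Prim2, the large primase subunit, 0.27 ± 0.12 (0.103). Prim1, the highest of the complex, was at 32.64, 30.87, 32.53, 28.23 and 28.45 FPKM in WT and 33.87, 24.05, 22.83, 24.24 and 25.11 FPKM in cKO. All cKO libraries other than library 1 lay below all WT libraries. Pola1 lies on the X chromosome. Its values were 18.63 and 22.86 FPKM in WT libraries 1 and 2 and 22.88, 20.53 and 19.89 FPKM in WT libraries 3 to 5, the Xist-positive ones, so these overlapped within WT.

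In polymerase delta, Pold2, the regulatory B subunit (chr11:5822180-5828292, minus strand), was at 27.32, 42.40, 46.64, 37.91 and 35.84 FPKM in WT and 44.36, 57.99, 61.06, 55.67 and 60.83 FPKM in cKO. Its groups overlapped at WT library 3 and cKO library 1, and it had the second largest change of the set (0.57 ± 0.14, limma adjusted p = 0.00681). Pold3, the subunit that links the enzyme to PCNA, fell from 28.6 ± 2.32 to 24.9 ± 1.44 FPKM with no overlap (-0.20 ± 0.07, limma adjusted p = 0.0336), a call kept in 13 of 21 alternatives. The catalytic Pold1 was at 32.5 ± 2.96 and 28.5 ± 2.61 FPKM and did not pass (-0.19 ± 0.08, limma adjusted p = 0.0830).

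In polymerase epsilon, Pole3, a small histone-fold subunit and the highest of its complex, was at 53.58, 57.02, 67.12, 59.05 and 51.40 FPKM in WT and 94.00, 74.28, 71.17, 72.03 and 68.11 FPKM in cKO. The groups did not overlap (0.39 ± 0.10, limma adjusted p = 0.00773). Pole2, the B subunit that stabilises the enzyme, fell from 16.7 ± 1.71 to 13.9 ± 1.59 FPKM (-0.27 ± 0.10, limma adjusted p = 0.0427), a call kept in 8 of 21 alternatives, and the catalytic Pole was at 15.8 ± 1.71 and 17.5 ± 2.53 FPKM (0.15 ± 0.10, limma adjusted p = 0.278).

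Pcna, the sliding clamp and the most abundant message of the set, was at 179.69, 218.75, 257.28, 196.86 and 174.03 FPKM in WT and 267.89, 234.58, 215.79, 215.24 and 231.58 FPKM in cKO. WT libraries 2 and 3 overlapped with the cKO range, and the difference did not pass (0.19 ± 0.11, limma adjusted p = 0.176). The mouse genome holds copies of Pcna that could take or lend reads, and the copy listed as Pcna-ps2 was at 3.31 to 7.46 FPKM.

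The clamp loader, replication factor C, opens PCNA and closes it around DNA. Rfc4, its most abundant subunit, was at 47.26, 53.50, 59.45, 49.65 and 50.53 FPKM in WT and 73.81, 59.92, 60.60, 60.38 and 65.23 FPKM in cKO. The groups did not overlap, by less than 1 FPKM (0.30 ± 0.08, limma adjusted p = 0.0111). Rfc2 went the other way and was the member that fell most, at 27.53, 27.32, 28.38, 24.64 and 26.11 FPKM in WT and 19.42, 22.17, 18.75, 23.97 and 19.06 FPKM in cKO. All cKO libraries lay below all WT libraries (-0.38 ± 0.08, limma adjusted p = 0.00311). In the annotation, 24.3% of the exonic bases of Rfc2 (chr5:134610220-134630661, plus strand) also lie in Lat2, a gene of the minus strand that encodes an adaptor of myeloid, mast and B cells. Lat2 was at 14.5 ± 3.54 FPKM in WT and 2.76 ± 1.18 in cKO, and its part in the value of Rfc2 was not tested. Rfc4 shares 16.5% of its exonic bases with Eif4a2 on the other strand (88.3 ± 3.47 and 82.4 ± 11.2 FPKM). Rfc5 shares 41.4% with Wsb2 on the other strand (4.46 ± 0.46 and 7.16 ± 1.30 FPKM). The part of these neighbours was not tested either. Rfc3 rose (0.29 ± 0.09, limma adjusted p = 0.0225), whereas Rfc1, the large subunit, and Rfc5 had log2 fold changes of 0.03 and 0.19 that did not pass.

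RPA coats single-stranded DNA as a trimer. Its large subunit Rpa1 was at 44.94, 48.52, 55.28, 46.58 and 45.42 FPKM in WT and 60.21, 63.19, 53.80, 63.29 and 63.84 FPKM in cKO. The groups overlapped at WT library 3 and cKO library 3 (0.34 ± 0.07, limma adjusted p = 0.00338). Rpa2 rose from 41.9 ± 4.45 to 51.1 ± 7.14 FPKM (0.28 ± 0.10, limma adjusted p = 0.0441), a call kept in 8 of 21 alternatives. The small subunit Rpa3 was at 48.5 ± 4.38 and 43.4 ± 5.86 FPKM (-0.17 ± 0.10, limma adjusted p = 0.189). In Okazaki fragment maturation, the ligase gene Lig1 was at 63.25, 62.91, 78.98, 61.90 and 53.84 FPKM in WT and 107.21, 73.27, 64.24, 77.75 and 64.88 FPKM in cKO, and the flap nuclease gene Fen1 was at 24.5 ± 1.66 and 23.7 ± 4.07 FPKM. Neither passed, with limma adjusted p of 0.173 for Lig1 and 0.668 for Fen1.

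**Figure D3:**
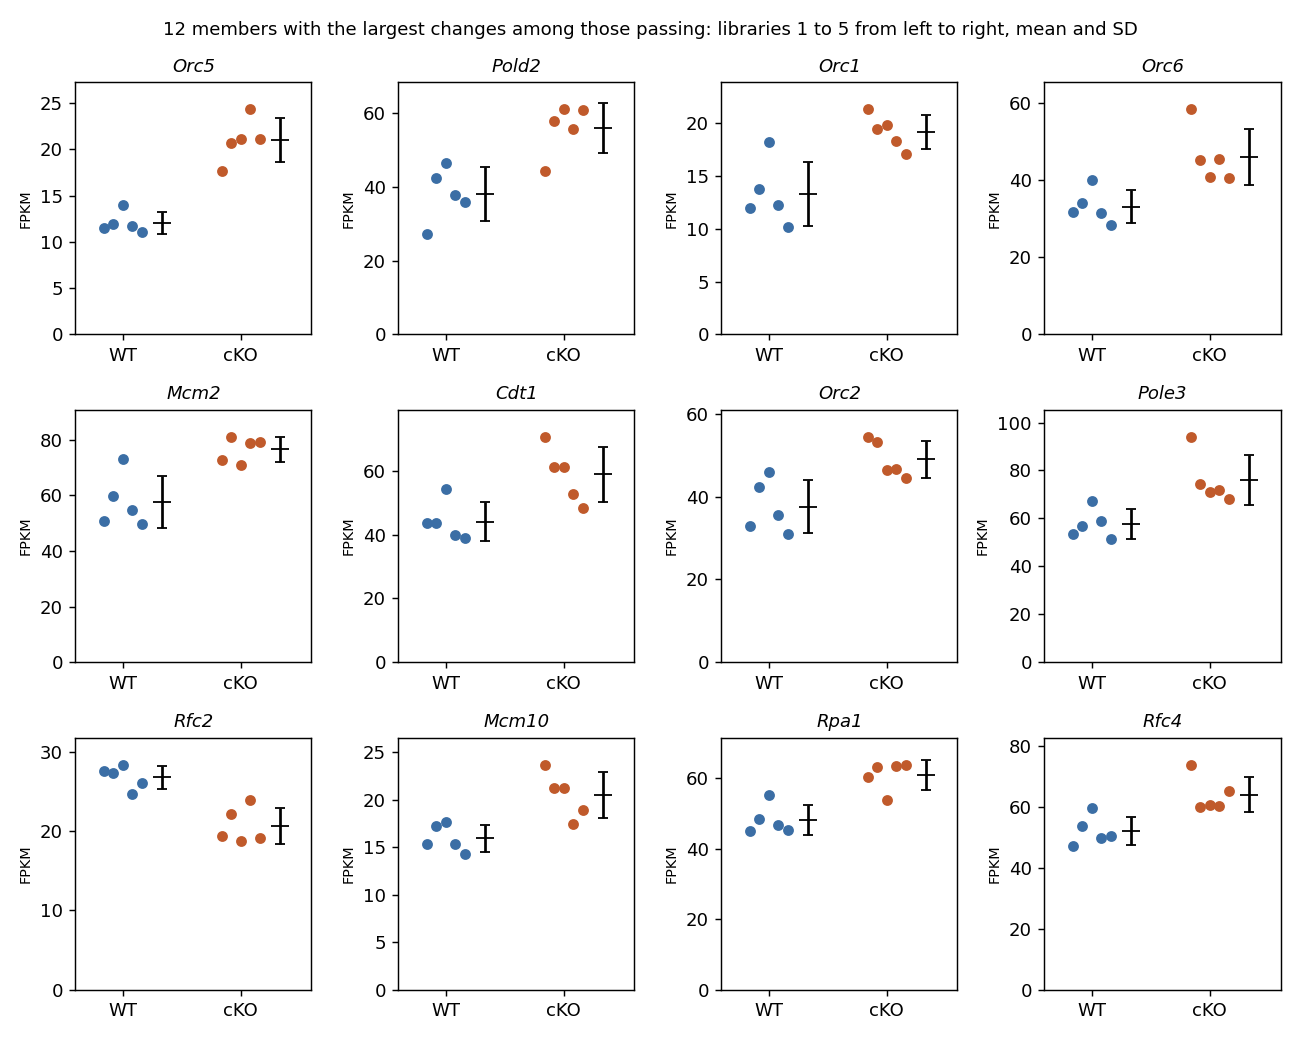
FPKM of the 12 members with the largest changes among those that passed, by library (1 to 5 from left to right in each group), with mean and SD. WT library 3 is the highest WT library in every panel, and the groups are fully apart for Orc5, Orc6, Pole3, Rfc2 and Rfc4.

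A ratio of subunits taken within a library does not depend on how libraries are scaled against each other. The pairs below were chosen after the values of the members were seen, so they describe the split and carry no test. Pold2 to Pold1 was 0.887 to 1.26 in WT and 1.41 to 2.22 in cKO. Orc5 to Orc3 was 0.621 to 0.730 in WT and 0.870 to 1.21 in cKO. In each of these pairs, all cKO libraries lay above all WT libraries. The same held for Rfc4 to Rfc2 (means 1.94 ± 0.14 and 3.14 ± 0.53), Pole3 to Pole2 (3.45 ± 0.21 and 5.47 ± 0.54), Prim2 to Prim1 (0.474 ± 0.057 and 0.674 ± 0.035) and Rpa1 to Rpa3 (0.997 ± 0.081 and 1.42 ± 0.17). Mcm2 to Mcm6 overlapped (0.405 ± 0.027 and 0.535 ± 0.066), and Pold3 to Pold1 was alike in level in both groups (0.882 ± 0.024 and 0.874 ± 0.031).

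**Figure D4:**
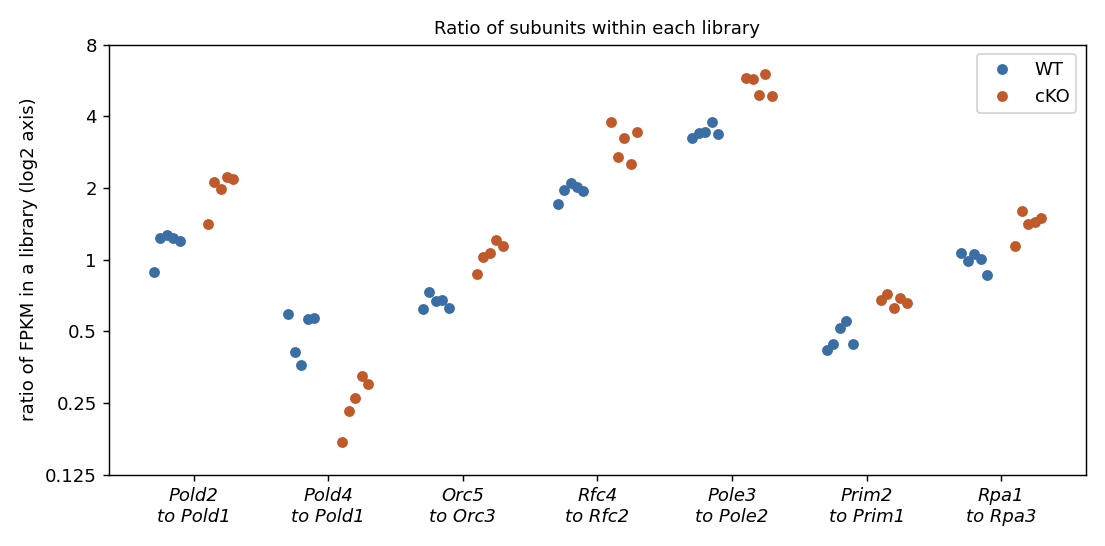
Ratio of the FPKM of 2 subunits of the same complex within each library, on a log2 axis, for 5 WT and 5 cKO libraries; the pairs were chosen after the values were seen. Only pairs whose groups did not overlap are drawn, so Mcm2 to Mcm6 and Pold3 to Pold1 are left out. The ratio to Pold1 was higher in cKO for Pold2 and lower for Pold4.

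The libraries of a group did not rise and fall independently from gene to gene. WT library 3 was the highest WT library for 39 of the 42 genes, and WT library 5 the lowest for 25. In cKO, library 1 was the highest for 33 of 42. The mean log2(FPKM + 0.1) over the 42 genes was 5.28 in WT library 3, 4.92 to 5.08 in the other WT libraries, 5.36 in cKO library 1 and 5.14 to 5.19 in the other cKO libraries. The groups overlapped through WT library 3. On the same scale the mean over the 18 erythroid markers was 5.45, 5.32, 6.10, 5.25 and 5.01 in the WT libraries and 6.79, 6.76, 6.64, 6.70 and 6.39 in the cKO libraries, their summed level was 1207 to 2491 FPKM in WT and 3185 to 4509 FPKM in cKO, and none was at 0 in any library. WT library 3 and cKO library 1 were the highest of their groups there too, and the part of erythroid cells in the differences of the replication genes was not tested. Markers of other lineages passed lower in part or in whole: 11 of 12 monocyte and dendritic cell markers (Lyz2 from 694 ± 220 to 47.9 ± 51.5 FPKM), 10 of 10 megakaryocyte markers, 7 of 8 of mast cells, basophils and eosinophils, 5 of 8 B-lymphoid markers tested, 6 of 10 of T and NK cells, and 5 of 7 stromal and endothelial markers tested, where 1 more passed higher. Among all genes tested 28.3% passed lower. The T-cell genes Cd3d, Cd3e, Cd3g and Trbc2 did not pass, with log2 fold changes of -0.617, 0.527, 0.289 and -0.633. Some markers that passed lower had means under 1 FPKM in both groups, among them Cd2 (0.716 and 0.150), Cdh5 (0.388 and 0.104) and Kdr (0.790 and 0.214). Neutrophil markers were divided: 5 of 12 passed lower, led by primary granule genes (Mpo from 1162 ± 154 to 191 ± 148 FPKM). Ltf, Camp, Ngp, S100a8 and S100a9, expressed later in the lineage, had higher means in cKO and did not pass. The log2 fold changes of S100a8 and S100a9 were negative (-1.24 and -0.195), as their higher means rested on cKO library 1. S100a8 was at 442.9 FPKM there, 2.51 to 79.19 FPKM in the other cKO libraries and 40.49 to 113.81 FPKM in WT. Mmp8, another later gene, had a lower mean in cKO (8.64 ± 3.36 and 3.02 ± 2.68 FPKM) and did not pass. Ngp was at 317.58 FPKM in cKO library 1 and 2.41 to 66.44 FPKM in the other cKO libraries, against 4.59 to 19.69 FPKM in WT, and the mean log2(FPKM + 0.1) of the list in cKO library 1, 5.96, was above every WT library (at most 5.28). The summed level of the monocyte and dendritic cell markers was 827 to 1458 FPKM in WT and 6.40 to 254 FPKM in cKO, with Siglech at 0 in 3 cKO libraries. The part of these lineages was not tested either.

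WT library 3 and cKO library 1 were then both left out, a choice made after seeing the data. All 17 members of the full comparison passed again. Another 9 passed too: Mcm5, Mcm7, Orc3, Gmnn, Pola1, Pola2, Prim1, Pcna and Rfc5, with Pola1 and Prim1 as falls. These libraries were the highest of their groups for 39 and 33 members. Leaving them out narrows the members' spread within groups, so the added passes cannot be read as further evidence of a difference. Among all genes tested, 19.7% then rose and 30.5% fell, against 16.7% and 28.3%. The 40 mitotic genes, which act after the DNA is copied, had a mean log2(FPKM + 0.1) of 5.20, 5.23, 5.35, 5.27 and 5.21 in WT and 5.46, 5.05, 5.12, 5.13 and 5.16 in cKO. All cKO libraries other than library 1 lay below all WT libraries.

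**Figure D5:**
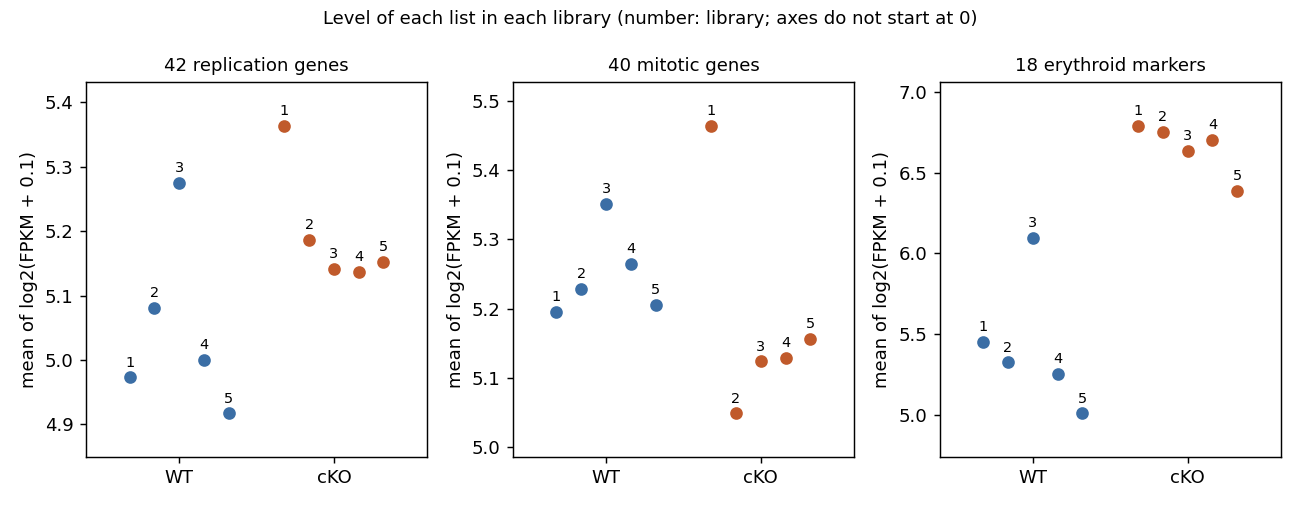
Mean log2(FPKM + 0.1) over the 42 replication genes, 40 mitotic genes and 18 erythroid markers in each library, numbered 1 to 5. WT library 3 and cKO library 1 are the highest of their groups in all panels, and cKO libraries 2 to 5 are above all WT libraries other than library 3 for the replication genes and below all of them for the mitotic genes.

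Genes that work beside the 42 were counted from lists by function. Of 35 origin firing and fork factors, 10 rose (28.6%, against 16.7% of all genes tested) and 6 fell (17.1%, against 28.3%), with a median of 0.10. Dbf4, the activator of the CDC7 kinase that fires origins, rose from 14.4 ± 1.08 to 21.9 ± 0.92 FPKM (0.60 ± 0.07, limma adjusted p = 0.000109), while Cdc7 itself fell (-0.28, limma adjusted p = 0.00878; named after its value was seen, as the partner of Dbf4). Recql4, a helicase of origin firing, and the histone chaperone Asf1a rose by 0.53 and 0.52 on the log2 scale. Pold4, the small subunit of polymerase delta, fell from 15.9 ± 2.15 to 7.26 ± 1.33 FPKM (-1.13 ± 0.14, limma adjusted p = 0.000169), a change of over 2-fold. Top2a, the topoisomerase that untangles sister chromatids, and Chtf8, of an alternative clamp loader, fell by 0.45 and 0.44. The ratio of Pold4 to Pold1 within a library was 0.498 ± 0.105 in WT and 0.258 ± 0.060 in cKO with no overlap, the opposite of Pold2.

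Of 14 genes of nucleotide supply, 2 rose and 2 fell (14.3% each), with a median of 0.05, so the share that rose was near that of all genes tested. Nme1, a nucleoside diphosphate kinase, and Rrm2, a subunit of ribonucleotide reductase, rose by 0.53 and 0.41. Samhd1, which breaks down deoxynucleotides, fell from 24.0 ± 1.73 to 13.3 ± 1.47 FPKM (-0.85 ± 0.09, limma adjusted p = 7.42e-05), and Shmt1, which feeds thymidylate synthesis, fell by 0.90. Of 18 E2F factors and G1/S regulators, 4 rose (22.2%) and 1 fell (5.56%), with a median of 0.06. E2f2 rose from 19.3 ± 4.31 to 48.3 ± 18.7 FPKM (1.27 ± 0.24, limma adjusted p = 0.00155), E2f4 from 74.2 ± 15.7 to 119 ± 8.37 FPKM (0.70 ± 0.13, limma adjusted p = 0.00120) and Rb1, the pocket protein that restrains E2F, from 22.6 ± 2.66 to 38.7 ± 6.59 FPKM (0.77 ± 0.12, limma adjusted p = 0.000636). Rbl2, another pocket protein, fell by 0.33. Of the 40 mitotic genes, 4 rose (10%) and 10 fell (25%, near the 28.3% of all genes tested), with a median of -0.04. Cdc20, Mki67 and Ube2c rose by 0.43, 0.35 and 0.34, and Nuf2, Kif23 and Top2a, which is in this list too, fell by 0.54, 0.52 and 0.45.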

How the data were processed

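Total RNA of Lin- cells was sequenced by the authors (paired-end), and per the labels the processing used cutadapt 1.9.1, HISAT2 2.0.1 and HTSeq 0.6.1 on GRCm39. The deposited values are FPKM per gene, and the gene lengths and normalization behind them are not given in the sources used here. The authors tested counts with DESeq2; FPKM are not counts, so limma 3.58.1 (R 4.3.3) was fitted here on log2(FPKM + 0.1) of genes whose mean reached 0.1 FPKM, with a trend, two-sided, over all 10 libraries. Columns were matched to samples by name, and symbols and positions came from GENCODE vM39. Separate mice are not stated in the labels, so the p-values measure the spread between these samples. Depth was estimated from the steps of low FPKM of genes with a single transcript, and 3 fragments over a kilobase were worth 0.16 to 0.217 FPKM. No libraries were alike within sampling noise.

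The members and lists were chosen with earlier results of these data known. Library values are given for the 12 members with the largest changes among those passing and for the highest member of each complex. Up to 3 passing genes of at least 1 FPKM per direction are named in other lists, and of each marker list at most the 2 highest. Kit, Cd34, the late neutrophil genes, the T-cell genes and the markers under 1 FPKM were added after their values were seen. Promoter sequences are RefSeq's.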

Additional observations from a re-analysis of the deposited data

Results flagged for a closer look

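Dixon's criterion for 5 values, a gap to the nearest library above 0.71 of the group's range, was applied to the 84 groups of libraries (42 members in WT and in cKO). It marked 10, where chance marks about 1 in 20 groups (4.2 of 84). Members of a library moved together, so the groups are not independent and these counts cannot be weighed against each other. All 10 were high values, 7 in cKO library 1 and 3 in WT library 3.

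In cKO library 1 the values were 58.33 FPKM for Orc6 (others 40.48 to 45.52), 85.92 for Gmnn (58.53 to 63.03), 35.37 for Gins1 (25.48 to 26.52), 19.32 for Pola2 (16.33 to 16.56), 33.87 for Prim1 (22.83 to 25.11), 22.00 for Pole (15.84 to 17.01) and 94.00 for Pole3 (68.11 to 74.28). In WT library 3 they were 71.75 FPKM for Gmnn (51.96 to 57.06), 13.18 for Gins3 (10.65 to 11.29) and 18.74 for Pole (14.38 to 15.45). Orc6 and Pole3, which rose, also passed without cKO library 1.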

How the results depend on the processing

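Over 21 alternatives no member that passed changed sign, and 314 of 357 values kept their call. Mcm2, Orc1, Orc5, Orc6, Pold2, Pole3 and Rpa1 rose and Rfc2 fell under all 21, whereas Pole2 and Rpa2 passed in 8 of 21, Pold3 in 13 and Rfc3 in 17. Cdt1, Mcm10, Orc2 and Orc4 were lost with a term for Xist alone, and Rfc4 with quantile normalization alone. With the Xist term 8 members rose and 1 fell, and 2035 genes rose in all. Members that fell numbered 1 with median-ratio scaling and with no trend, 6 with equal sums, 1 to 7 with a library left out (7 without cKO library 1; 1 without WT library 2 or 3 or cKO library 2 or 4) and 5 with WT 3 and cKO 1 both out (added after seeing the data). Genes past 2-fold were 356 higher and 1486 lower with a pseudocount of 1, and 462 and 1827 at a mean of at least 1 FPKM. Quantile normalization gave 1581 higher, moved the median of all genes from -0.11 to 0.10 and left the members 0.05 above it instead of 0.27; of passing genes 54.5% were then higher, against 37.2%, and of genes past 2-fold 41.3%, against 21.5%. Median-ratio scaling moved that median to -0.01. The cause was not tested. With the last 7 letters of the E2F sequence 67.6% of members held it, against 18.5% of genes tested. The replicate block left 16 of 17 members passing (Rpa2 lost, Rfc5 added). Deviations of same-numbered libraries correlated at -0.01 to 0.12, so a pairing by number was neither shown nor excluded.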
